A study of Mus musculus with 21 samples.

Results

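The contralateral ventral pons 30 days after a facial nerve cut was compared with the ventral pons of unoperated mice. The comparison rests on 6 of the 21 libraries of the study, 3 from day 30 contralateral pons and 3 from day 0 pons. It covers 22294 genes with a summed count of at least 30 over all 21 libraries. The members were chosen by their sample titles and not by any measured value. The day 30 mice were 12 weeks old and had had the right facial nerve cut at the stylomastoid foramen at 8 weeks, and the left pons was taken. The day 0 mice were 8 weeks old and unoperated, and the left pons was taken there too. All mice were C57BL/6 and carried CX3CR1GFP/wt. In this genotype a green fluorescent protein gene takes the place of 1 working copy of the microglial fractalkine receptor gene. Both groups thus had 1 working copy of Cx3cr1. Whether reads from the altered copy were counted to Cx3cr1 was not tested. The block of tissue held the facial nucleus with neighbouring reticular and spinal trigeminal nuclei. Contralateral pons of days 7 and 14 (9 and 10 weeks old) and lesion-side pons of day 30, 3 libraries each, were used to place the values.

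The facial nucleus holds the motor neurons of the face, and cutting the nerve on one side damages the axons of that side only. The contralateral pons is therefore the usual within-animal control for such a lesion. A pons from an unoperated mouse gives a second reference, which here also differs in age, lane label and depth. Between the 2 ages a mouse brain goes on maturing: the production of new myelinating oligodendrocytes and of vessel wall matrix slows as a mouse becomes adult. Levels of clock genes in any tissue also depend on the hour at which it is taken.

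Day 30 contralateral libraries held 17956784 to 21908496 counts and day 0 libraries 35874913 to 41448945. Replicates of a group correlated with r of at least 0.9911 across genes on the log2 CPM scale (CPM, counts scaled by library size and TMM to a common total), and libraries of different groups with 0.9839 to 0.9891. Correlations across genes describe these libraries, and genes are not independent replicates. The column headers give lane label 3 for day 30 libraries and lane label 1 for day 0 libraries. Of the 3 day 0 libraries, 2 carry the same lane label and index as a day 7 library, so day 0 and day 7 libraries cannot all have been read in 1 lane of 1 run. Time after surgery, age, operated state, lane and depth all differ between the groups and cannot be told apart. Labels do not say that equal replicate numbers mark one animal or batch, and p-values measure the spread between these libraries. In such bulk tissue, fewer cells of a type and less RNA per cell cannot be told apart.

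In edgeR's quasi-likelihood test 3597 genes, 16.1% of those tested, differed at an adjusted p under 0.05. In day 30 contralateral pons 2078 genes were higher (9.32%) and 1519 lower (6.81%). Most differences were small: 2440 of the 3597 (67.8%) were under 0.5 on the log2 scale, and 345 (9.59%) reached 1. The median over all genes tested was -0.03. At the study's own threshold, which adds a log2 change of at least 1.7, 68 genes were higher and 32 lower. Of the called genes 3519 had all 3 day 30 libraries on one side of all 3 day 0 libraries, where the groups did not overlap for 16.2% (above) and 17.1% (below) of all genes tested.

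The differences followed the base composition of the transcripts. Genes called higher had a median GC content of 42.3% in their longest annotated transcript and genes called lower 53.6%, against 49.9% for genes not called. Of the 851 genes under 40% GC with a mean of at least 1 CPM, 59.3% were called higher and 0.588% lower. Of the 3358 genes over 55% GC, 1.37% were called higher and 16.7% lower. Median log2 differences from day 0 fell steadily over the 5 GC classes, with 0.40 in the lowest class and -0.12 in the highest. The same medians between day 30 and day 14 contralateral pons lay between -0.01 and 0.02. Between day 30 and day 7 they fell over the same classes, with 0.06 in the lowest and -0.045 in the highest. A fit that takes each library's own GC trend out called 2203 genes, 1238 higher and 965 lower, of which 1681 were among the 3597. The part of base composition in any single gene's difference was not tested, and counts from that fit are given beside most gene groups. Among the genes described, Bcas1, Cnp, Dbp, Gpr17, Nefl, P2ry12, Plin4 and Rpl15 share annotated exon bases with a gene on the opposite strand, and their counts are uncertain to that extent.

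**Figure D1:**
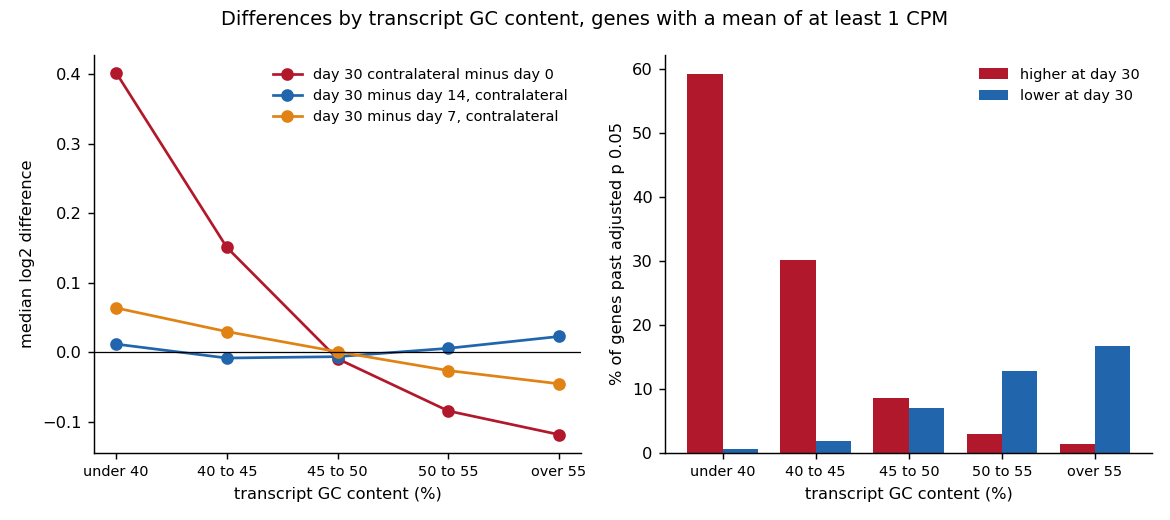
Left, median log2 difference over genes in 5 classes of transcript GC content, for day 30 contralateral minus day 0 and for day 30 minus days 14 and 7 of the contralateral pons. Right, the percentage of genes in each class called higher or lower in day 30 contralateral than in day 0 pons. The lowest class stands at 0.40 and 59.3% higher, and the highest at -0.12 and 16.7% lower.

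Transcripts of the mitochondrial genome rose together. The mitochondrial genome encodes 13 subunits of the respiratory chain, 2 ribosomal RNAs and the transfer RNAs used to translate them. Of its 37 listed genes 29 passed the filter on counts, and 21 of these were higher in day 30 contralateral pons while none was lower. Their share of all counts was 6.38%, 6.31% and 7.29% in the 3 day 30 contralateral libraries and 3.08%, 3.05% and 3.60% in the 3 day 0 libraries. Every day 30 library lay above every day 0 library, by 3.41 percentage points in the mean (6.66% ± 0.542 and 3.25% ± 0.309, SD, n = 3 each; exact two-sided permutation p = 0.1, the smallest that 3 against 3 can give). On days 7 and 14 the contralateral share was 4.17% ± 0.257 and 4.59% ± 0.147, and the day 30 lesion side had 6.12% ± 0.298.

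Among the mRNAs, mt-Nd6, the only subunit gene on the opposite strand (GRCm38, mitochondrial genome, 13552 to 14070, minus strand), had 2693, 2482 and 2644 CPM in day 30 contralateral libraries and 785, 780 and 948 CPM in day 0 libraries. The groups lay far apart, with a log2 difference of 1.64 ± 0.12 (SE, adjusted p = 2.69e-08). mt-Nd1 rose by 1.42 ± 0.20 (adjusted p = 0.000162) and mt-Nd2 by 1.45 ± 0.24 (0.000555), both subunits of complex I. The cytochrome oxidase subunit gene mt-Co1 (5328 to 6872, plus strand) had 13998, 14457 and 16528 CPM in day 30 contralateral libraries and 7255, 6700 and 8468 CPM in day 0 libraries. Its log2 difference was 1.00 ± 0.09 (adjusted p = 6.53e-08), and the cytochrome b gene mt-Cytb differed by 0.82 ± 0.12 (7.16e-05). The 2 ribosomal RNAs mt-Rnr1 and mt-Rnr2 rose by 0.98 ± 0.10 (adjusted p = 8.64e-07) and 1.01 ± 0.09 (2.78e-08).

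In all, 8 of the 13 mRNAs rose, with a median log2 difference over the 13 of 1.06. The other 5 (mt-Co2, mt-Co3, mt-Atp6, mt-Nd3 and mt-Nd4l) did not pass the test and stood at 0.722 to 93.8 CPM in the libraries compared, far below mt-Co1. Of the 50-base stretches of these 5 genes, 97.99% to 100% also occur in transcripts of nuclear genes. The level of these genes is uncertain for that reason. The same share was 51.14% for mt-Co1, 62.23% for mt-Nd4 and 0% for mt-Nd1, mt-Nd6, mt-Cytb and mt-Atp8. All these mRNAs are poor in GC. With the GC trend taken out 6 of 13 were still called higher, with a median of 0.55, and mt-Nd6 differed by 1.03 (adjusted p = 8.34e-07).

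Transfer RNA genes showed the largest folds, although most were read at low counts. Of the 14 that passed the filter 11 were higher. mt-Tc, the cysteine transfer RNA, had 43.0, 33.9 and 34.7 CPM in day 30 contralateral libraries and 3.92, 2.32 and 5.57 CPM in day 0 libraries, a log2 difference of 3.25 ± 0.26 (adjusted p = 3.5e-07). mt-Tq, the glutamine transfer RNA, had 4.96, 5.12 and 4.60 CPM in day 30 contralateral libraries and 0.469, 0.469 and 0.877 CPM in day 0 libraries (3.01 ± 0.20, adjusted p = 5.72e-11). The isoleucine transfer RNA mt-Ti differed by 3.39 ± 0.39 (adjusted p = 5.04e-07) and the alanine transfer RNA mt-Ta by 1.95 ± 0.24 (9.48e-07). No library of one group reached into the range of the other for these 4 genes. With the GC trend taken out their differences were 2.71, 2.48, 2.80 and 1.34, and all were still called. Messenger RNA kits capture poly(A) tails, and a 50-base read covers most of such a gene. mt-Ts2, mt-Tl2 and mt-Tt, also called higher, averaged under 1 CPM over the 6 libraries and are left without a fold. The sequences of the 4 are printed here because they carried the largest transfer RNA rises at a mean of at least 1 CPM, from the GENCODE transcripts on GRCm38, 5′ to 3′, with bases shared with an annotated neighbour in capitals (mt-Nd1 and mt-Tq for mt-Ti, mt-Ti for mt-Tq).
mt-Ti (3706 to 3774, plus strand): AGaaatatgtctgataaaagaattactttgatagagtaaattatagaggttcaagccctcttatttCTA
mt-Tq (3772 to 3842, minus strand): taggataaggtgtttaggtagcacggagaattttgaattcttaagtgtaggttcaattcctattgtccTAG
mt-Tc (5192 to 5257, minus strand): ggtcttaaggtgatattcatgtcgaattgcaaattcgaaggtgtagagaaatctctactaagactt
mt-Ta (5018 to 5086, minus strand): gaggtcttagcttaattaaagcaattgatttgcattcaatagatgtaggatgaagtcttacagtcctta

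Several mitochondrial transcripts were also higher at day 30 than at the earlier days of the same side, where few genes differed at all. Against day 14 these were 91 genes (0.408%), 39 higher (0.175%) and 52 lower (0.233%). Against day 7 they were 31 genes (0.139%), 22 higher (0.0987%) and 9 lower (0.0404%). mt-Co1 was higher by 0.58 than at day 14 (adjusted p = 0.00969) and by 0.74 than at day 7 (0.00149). mt-Cytb differed by 0.58 (adjusted p = 0.0461) and 0.70 (0.0238), and mt-Tq by 0.82 (0.0461) and 1.07 (0.0132). mt-Rnr1 and mt-Rnr2 passed both tests as well. The number of named genes that passed moved with single libraries. It was 10 against day 14, but 1 without day 30 contralateral replicate 1, 1 without replicate 2, 0 without replicate 3 and 6 without day 0 replicate 3. It was 8 against day 7, but 2 without day 30 contralateral replicate 2 and 1 without replicate 3. The lesion side of day 30 did not differ from the contralateral side for any of the 13 mRNAs at an adjusted p under 0.05 (background 1.16% of genes, 1.04% higher and 0.121% lower), and mt-Co1 differed there by -0.10 (adjusted p = 0.881).

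**Figure D2:**
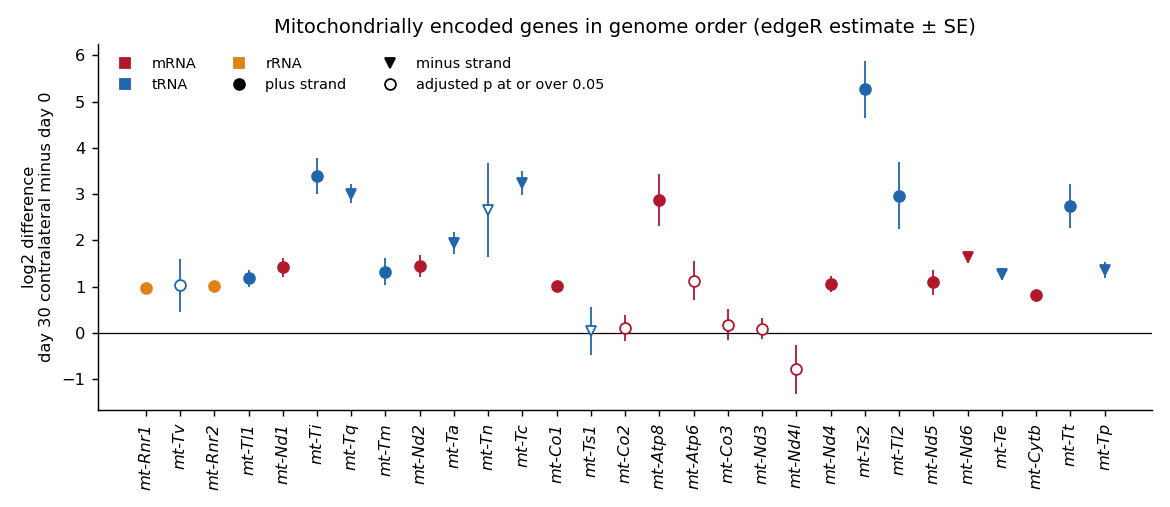
Log2 difference (day 30 contralateral minus day 0, edgeR estimate with its SE) of the 29 mitochondrially encoded genes tested, in genome order. Circles are genes of the plus strand and triangles of the minus strand, and open symbols did not pass an adjusted p of 0.05. The 21 filled symbols all lie above 0, and the open mRNA symbols are the 5 genes whose stretches nearly all recur in nuclear transcripts.

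Nuclear genes of the respiratory chain did not follow: of 76 members 5 rose and none fell, with a median of -0.03. That is 6.58%, where 16.1% of all genes were called and 9.32% were called higher. Without day 30 contralateral replicate 3 the count was 3, in a replicate block 7 rose and 1 fell. With the GC trend taken out 3 rose and 2 fell. With mitochondrially encoded genes left out, and with limma-voom, 8 rose and none fell. DESeq2 size factors and a filter of at least 1 CPM in 3 or more libraries also gave 8 rises and no fall. The exception in size was Cycs, encoding cytochrome c, with 15.75, 14.97 and 14.05 CPM in day 30 contralateral libraries and 6.74, 6.40 and 8.23 CPM in day 0 libraries. It rose by 1.07 ± 0.11 (adjusted p = 1.14e-07), and by 0.82 with the GC trend taken out (2.22e-05). Of 78 cytosolic ribosomal protein genes 12 rose and 3 fell (19.2% called), with a median of 0.05. There were 8 and 1 without day 30 contralateral replicate 3, and 12 and 0 with the GC trend taken out. Rpl15 rose most clearly, by 0.85 ± 0.08 (adjusted p = 4.65e-08), with 55.8 ± 1.65 CPM in day 30 contralateral and 31.0 ± 4.53 CPM in day 0 pons (SD, n = 3 each).

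Genes of the circadian clock changed in both directions. The clock is a loop in which activators (Arntl, Clock, Npas2) switch on repressors (Per, Cry, Ciart, Nr1d genes) and output factors (Dbp, Tef, Hlf). Of 22 members tested 13 rose and 3 fell (72.7%, background 16.1%), with a median of 0.49. Among activators, Arntl had 10.2, 11.5 and 8.97 CPM in day 30 contralateral libraries and 19.6, 16.5 and 19.2 CPM in day 0 libraries. It fell by 0.85 ± 0.11 on the log2 scale (adjusted p = 1.91e-06), and Npas2 differed by -0.66 ± 0.14 (0.00134), while Clock had a difference of 0.08 ± 0.08 (0.558).

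Among repressors, Per2 had 26.1, 26.3 and 32.9 CPM in day 30 contralateral libraries and 12.6, 9.82 and 11.5 CPM in day 0 libraries, so the groups stood well apart (1.34 ± 0.22, adjusted p = 0.000409). Per3 (chromosome 4, 151003652 to 151044665, minus strand) had 42.6, 44.3 and 44.9 CPM in day 30 contralateral libraries and 24.3, 20.99 and 23.6 CPM in day 0 libraries (0.94 ± 0.11, adjusted p = 7.83e-07). Nr1d2, encoding the nuclear receptor REV-ERB beta, rose by 0.84 ± 0.06 (adjusted p = 4.3e-10), and Ciart by 0.90 ± 0.11 (1.44e-06). Nr1d1, its close relative, had overlapping groups and a difference of -0.06 ± 0.16 (adjusted p = 0.843). Among output factors, Dbp (chromosome 7, 45705088 to 45710203, plus strand) had 53.1, 51.0 and 48.4 CPM in day 30 contralateral libraries and 22.9, 24.5 and 27.9 CPM in day 0 libraries (1.02 ± 0.08, adjusted p = 1.39e-09). Tef and Hlf rose by 0.46 ± 0.06 (adjusted p = 6.8e-06) and 0.53 ± 0.07 (6.18e-06). Nfil3, which competes with these factors for their DNA element, fell by 0.50 ± 0.12 (adjusted p = 0.00541).

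None of the 22 clock members differed between day 30 and day 14 or between day 30 and day 7 contralateral pons at an adjusted p under 0.05. Dbp averaged 25.1 CPM at day 0, 54.9 at day 7, 50.3 at day 14 and 50.8 at day 30. Per2 averaged 11.3 CPM at day 0, 15.9 at day 7, 23.4 at day 14 and 28.4 at day 30. Dbp thus stood at its day 30 level by day 7, whereas the Per2 means were spread over the 4 days, with differences of day 30 from days 14 and 7 of 0.28 (adjusted p = 0.64) and 0.84 (0.18). With the GC trend taken out 12 clock members were higher and 3 lower. The labels do not give the hour of tissue collection, and its part in these differences was not tested.

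**Figure D3:**
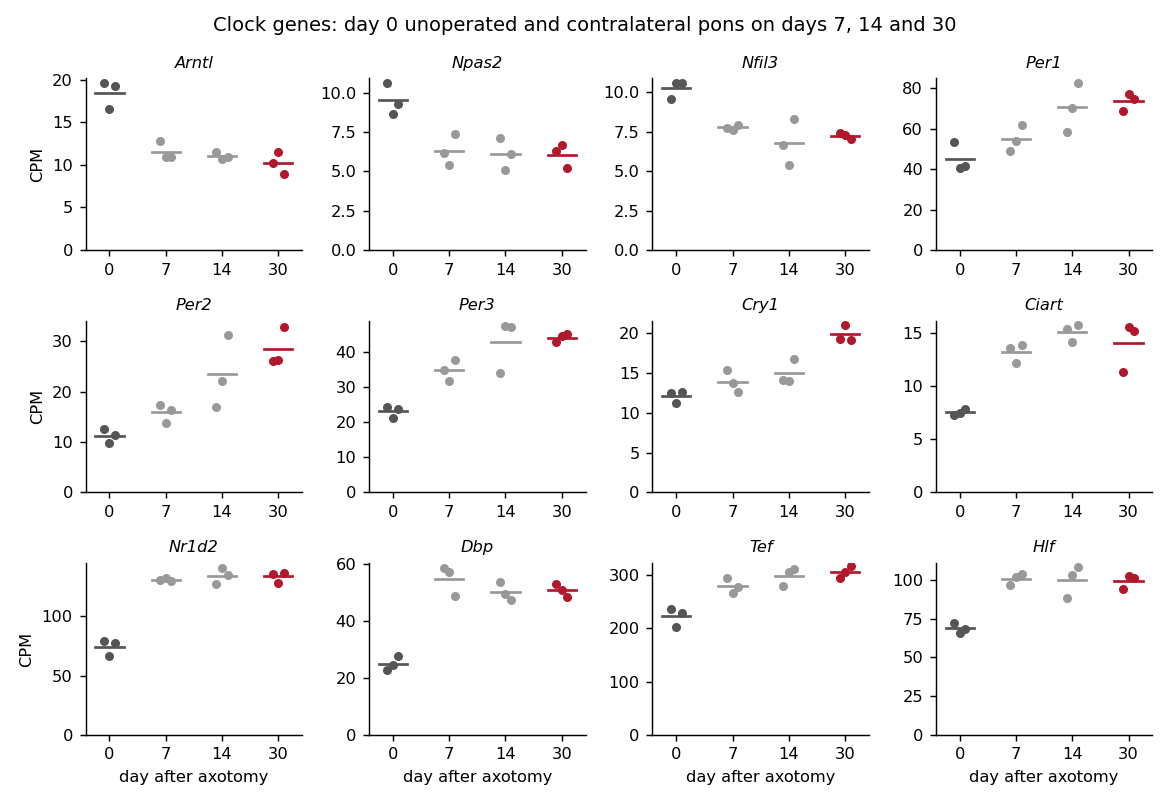
CPM of 12 clock genes in each library (points) with the group mean (line), for day 0 unoperated pons and contralateral pons at days 7, 14 and 30; every vertical axis starts at 0. Arntl, Npas2 and Nfil3 are lower and the other 9 genes higher at day 30 than at day 0.

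Of 18 clock members with a RefSeq promoter window (GRCm38.p6, 250 bases before to 50 after the start site), 5 held the E-box CACGTG. This element is bound by the activators. The 5 were Bhlhe41, Ciart, Cry1, Per1 and Tef, all among the 13 of 22 members tested that rose. The same letters occur in 7.15% of all 32851 windows. The 18 are genes, counted if any window matched (Tef had 2 such windows), so the 2 rates differ in unit. The D-box TTATGTAA, the element of the output factors, was found in 1 of the 18, Per3, and in 0.938% of all windows. Both strands were searched. The 2 windows with repeated elements are printed, 5′ to 3′ on the gene's strand, with the matches in capitals.
Ciart, E-boxes in capitals, chr3:95882179-95882478, minus strand: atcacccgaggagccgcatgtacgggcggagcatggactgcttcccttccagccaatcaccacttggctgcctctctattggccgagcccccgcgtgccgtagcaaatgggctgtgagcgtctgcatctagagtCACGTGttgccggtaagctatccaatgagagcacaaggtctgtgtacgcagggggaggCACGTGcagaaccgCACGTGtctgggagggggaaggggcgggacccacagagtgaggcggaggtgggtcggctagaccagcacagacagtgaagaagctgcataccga
Per3, D-boxes in capitals, chr4:151044616-151044915, minus strand: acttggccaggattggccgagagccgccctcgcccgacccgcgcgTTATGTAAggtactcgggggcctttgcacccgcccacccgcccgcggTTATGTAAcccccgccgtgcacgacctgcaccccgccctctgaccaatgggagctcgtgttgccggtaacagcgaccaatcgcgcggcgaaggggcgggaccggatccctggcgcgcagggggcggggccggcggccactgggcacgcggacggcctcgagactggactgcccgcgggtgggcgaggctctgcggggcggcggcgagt
Ciart held 3 E-boxes, starting 116, 58 and 44 bases before the start site, and Per3 2 D-boxes, 205 and 158 bases before it. A match is a description of the letters and not evidence of binding.

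Among myelin and oligodendrocyte genes more passed the test as lower than as higher in day 30 contralateral pons. Of 24 myelin genes 12 fell and 1 rose, with a median of -0.28 against -0.03 over all genes. That is 54.2% of the list called, where 16.1% of all genes were called and 6.81% were called lower. Fa2h, which makes the hydroxylated lipids of myelin (chromosome 8, 111345135 to 111393824, minus strand), had 143, 131 and 129 CPM in day 30 contralateral libraries and 212, 222 and 221 CPM in day 0 libraries. The groups were clearly separate, with a log2 difference of -0.70 ± 0.07 (adjusted p = 3.43e-08). Mag, an adhesion protein between myelin and axon, fell to 735 ± 56.0 CPM in day 30 contralateral pons, against 1041 ± 52.9 CPM in day 0 pons (SD, n = 3 each; -0.50 ± 0.08, adjusted p = 8.17e-05). Cnp, a myelin enzyme, differed by -0.36 ± 0.06 (adjusted p = 0.000148), and the lineage transcription factor gene Olig2 by -0.59 ± 0.11 (0.000611). The most abundant myelin transcript did not pass: Mbp had 13053, 13613 and 14830 CPM in day 30 contralateral libraries and 14342, 15102 and 15250 CPM in day 0 libraries (-0.11 ± 0.07, adjusted p = 0.337).

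Of 14 genes tested of cells on the way to becoming oligodendrocytes 7 fell and 1 rose (57.1% called), with a median of -0.29. The list total overlapped, with 1397 to 1411 CPM in day 30 contralateral pons and 1384 to 1465 CPM in day 0 pons. Gpr17, a receptor of newly committed oligodendrocytes, had 60.0, 53.8 and 52.7 CPM in day 30 contralateral libraries and 107, 89.96 and 112 CPM in day 0 libraries (-0.89 ± 0.10, adjusted p = 3.25e-06). Enpp6, another gene of that stage, fell to 20.6 ± 1.797 CPM in day 30 contralateral pons, against 31.9 ± 1.15 CPM in day 0 pons (-0.63 ± 0.09, adjusted p = 4.82e-06). Bcas1 was the exception and rose by 0.26 ± 0.06 (adjusted p = 0.00346). Of 14 precursor genes 4 fell and 1 rose (35.7% called), and 2 of the fallers, Olig1 and Olig2, are also on the myelin list (1 higher and 2 lower without day 30 contralateral replicate 3). With the GC trend taken out 14 myelin genes, 4 of the differentiating genes and 2 of the precursor genes were called lower, and Gpr17 and Enpp6 differed by -0.80 (adjusted p = 8.58e-05) and -0.81 (1.63e-07). Among the genes of these 3 lists Fa2h alone was lower at day 30 than at day 7 (-0.35, adjusted p = 0.0293), and none was lower than at day 14.

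Among vessel and matrix genes, too, more were called lower than higher. Of 22 fibroblast and collagen genes 8 fell and none rose, with a median of -0.48; this is 36.4% called, where 6.81% of all genes were called lower and 9.32% higher. Col4a1, a chain of the basement membrane collagen, had 41.7, 34.7 and 36.9 CPM in day 30 contralateral libraries and 85.7, 72.2 and 78.2 CPM in day 0 libraries (-1.06 ± 0.07, adjusted p = 1.44e-10). No day 30 value came near a day 0 value. Col4a1 and Col4a2 lie head to head on opposite strands and overlap at their starts. Col4a2, Col15a1 and Col18a1 fell by 0.57 ± 0.07 (adjusted p = 2.31e-06), 0.57 ± 0.10 (0.000201) and 0.64 ± 0.13 (0.001). Without day 30 contralateral replicate 3 the list had 5 falls, and in the fit of the 6 libraries alone 12 falls and 1 rise. Of 14 pericyte and smooth muscle genes 4 fell, which is 28.6% (2 without day 30 contralateral replicate 2 or replicate 3), among them the growth factor receptor gene Pdgfrb (-0.65 ± 0.09, adjusted p = 3.69e-06). Of 18 endothelial genes 6 fell and 2 rose, which is 44.4% (3 and 2 without day 30 contralateral replicate 2). Cldn5, the main claudin of the blood-brain barrier, had 41.5, 35.2 and 31.9 CPM in day 30 contralateral libraries and 60.1, 72.0 and 79.2 CPM in day 0 libraries (-0.96 ± 0.18, adjusted p = 0.00123). The receptor gene Kdr differed by -1.02 ± 0.20 (adjusted p = 0.00149), whereas the transporter gene Slco1a4 rose by 0.65 ± 0.07 (4.85e-07). Summed over its list, endothelium had 1486 to 1548 CPM in day 30 contralateral pons and 1470 to 1563 CPM in day 0 pons, so the list total overlapped. With the GC trend taken out 7 collagen and fibroblast genes and 4 pericyte genes were called lower and none higher. In that fit 4 endothelial genes were lower and 3 higher, with a median of -0.03.

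Heat shock and endoplasmic reticulum chaperones moved both ways. Of 27 tested 5 rose and 11 fell (59.3%, background 16.1%), with a median of -0.16. Those that rose were the cytosolic co-chaperone genes Dnaja1 (0.46 ± 0.06, adjusted p = 4.61e-06) and Dnajb1 (0.26 ± 0.08, 0.0177), the mitochondrial Hspe1 (0.40 ± 0.09, 0.00281) and the inducible Hspa1a and Hspa1b. Hspa1b had 4.82, 2.36 and 3.95 CPM in day 30 contralateral libraries and 1.41, 0.796 and 1.42 CPM in day 0 libraries (1.63 ± 0.27, adjusted p = 9.06e-05). It was also higher at day 30 than at day 14 (1.67, adjusted p = 0.0147) and day 7 (1.95, 0.00722). The calls of Dnajb1 (without day 30 contralateral replicate 1 or 3, or day 0 replicate 2) and Hspa1a (without day 30 contralateral replicate 1, 0.68, adjusted p = 0.0573) were lost when single libraries were left out. Hspa1a and Hspa1b are near-identical genes, and the split of reads between them is uncertain. Those that fell included chaperones of the endoplasmic reticulum, Hyou1 (-0.35 ± 0.06, adjusted p = 4.53e-05), Calr (-0.35 ± 0.07, 0.000381) and Sdf2l1 (-0.53 ± 0.10, 0.000347), and also cytosolic Hspa8 (-0.26 ± 0.05, 0.00116). The counts were 6 higher and 11 lower with the GC trend taken out.

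Of 23 cholesterol synthesis genes 7 fell and none rose, with a median of -0.18. This is 30.4% of the list, where 6.81% of all genes were called lower. Dhcr7, the enzyme of a last step of the pathway, had 69.6, 65.1 and 59.99 CPM in day 30 contralateral libraries and 82.3, 85.9 and 84.7 CPM in day 0 libraries (-0.38 ± 0.07, adjusted p = 0.000146). Srebf2, the transcription factor of the pathway, differed by -0.26 ± 0.06 (adjusted p = 0.00183), and its call was lost with the GC trend taken out (0.142). The list had 9 members lower with the GC trend taken out, and 11 without day 0 replicate 1.

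Splicing and RNA-binding genes had 20 of 29 members higher and none lower, with a median of 0.26. This is 69% of the list, where 9.32% of all genes were called higher. Srsf3, a splicing factor of the serine and arginine rich family, had 65.5, 71.9 and 67.1 CPM in day 30 contralateral libraries and 34.9, 31.8 and 39.3 CPM in day 0 libraries (0.95 ± 0.08, adjusted p = 1.71e-09). Luc7l2 rose by 0.70 ± 0.08 (adjusted p = 2.28e-07) and Srsf1 by 0.62 ± 0.06 (8.66e-09). The list has a median GC content of 43.2%, and with the GC trend taken out 11 members were higher and 2 lower. Srsf3 then differed by 0.70 (adjusted p = 3.8e-07).

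Neuronal genes gave mixed results that moved with base composition. Of 15 inhibitory neuron genes 3 rose and none fell, and 2 rose with the GC trend taken out. This is 20%, where 16.1% of all genes were called and 9.32% were called higher. Glrb, the anchoring subunit of the glycine receptor, had 385, 376 and 404 CPM in day 30 contralateral libraries and 281, 250 and 263 CPM in day 0 libraries (0.55 ± 0.06, adjusted p = 2.28e-07). It differed by 0.30 with the GC trend taken out (adjusted p = 0.000203). Snap25, a protein of vesicle fusion, gained more CPM than any other called nuclear gene, with 3604, 3631 and 4030 CPM in day 30 contralateral libraries and 2930, 2830 and 2896 CPM in day 0 libraries (0.38 ± 0.05, adjusted p = 6.86e-06). Its transcript has 38.69% GC, and its difference was 0.00 with the GC trend taken out (adjusted p = 0.997). Nefl, the light neurofilament gene, rose by 0.33 ± 0.06 (adjusted p = 0.000124) and by 0.36 in that fit (5.57e-05). Potassium channel genes had 6 of 34 members higher and none lower, and 5 higher with the GC trend taken out. This is 17.6%, beside the same 16.1% called and 9.32% called higher. The list of synaptic vesicle and release genes had 1 higher and 5 lower of 24 (25%), and 1 lower in the fit with the GC trend taken out. Without day 30 contralateral replicate 1 that list had 1 higher and 1 lower, and without day 0 replicate 1 it had 1 higher and 2 lower. Slc17a7, a glutamate transporter gene abundant in cortical and cerebellar input neurons, had 28.0, 57.9 and 65.0 CPM in day 30 contralateral libraries and 96.5, 189 and 84.4 CPM in day 0 libraries (-1.30 ± 0.34, adjusted p = 0.0163). Day 0 replicate 2 stood highest, and without it the difference was -0.85 (adjusted p = 0.0879); the call was also lost without day 30 contralateral replicate 1.

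Motor neuron genes were called at about the rate of all genes. Chat, the acetylcholine synthesis gene, had 42.4, 30.6 and 33.3 CPM in day 30 contralateral libraries and 37.7, 30.7 and 32.3 CPM in day 0 libraries (0.08 ± 0.21, adjusted p = 0.851). Of 20 motor neuron genes 2 rose (Isl1, 1.02 ± 0.27, adjusted p = 0.0133, and Nefl) and 1 fell, the nicotinic receptor gene Chrna7 (-0.56 ± 0.17, 0.0276), which is 15% of the list beside 16.1% of all genes. The counts were also 2 and 1 with the GC trend taken out. The Isl1 call was lost without day 30 contralateral replicate 1 and in the fit of the 6 libraries alone (adjusted p = 0.0684). The Chrna7 call was lost without day 30 contralateral replicate 2 (-0.43, adjusted p = 0.154) or 3 (0.0605) and without day 0 replicate 1 (0.1). Of 25 genes of the axotomy response 2 rose, Klf6 (0.41 ± 0.11, adjusted p = 0.0131) and Lifr (0.38 ± 0.10, 0.00787). This is 8%, beside the same 16.1% called and 9.32% called higher, and 3 rose with the GC trend taken out. Klf6 lost its call without day 30 contralateral replicate 1, without day 0 replicate 1 or 2, and with the GC trend taken out. Lifr differed by 0.24 without day 0 replicate 2, and its call was lost in the fit of the 6 libraries alone (adjusted p = 0.1). Atf3, the injury factor of cut motor neurons, had 1.83, 1.86 and 1.41 CPM in day 30 contralateral libraries and 0.994, 1.08 and 1.52 CPM in day 0 libraries, and the groups overlapped (adjusted p = 0.521). Sprr1a had a difference of 0.83 ± 1.15 (adjusted p = 0.699). On the day 30 lesion side Atf3 and Sprr1a were higher than on the contralateral side by 3.45 (adjusted p = 2.15e-05) and 6.96 (2.36e-06). The 2 sides were fitted as separate groups, not paired by animal.

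Of 20 homeostatic microglia genes 3 rose and 2 fell, with a median of 0.04. This is 25% called, where 16.1% of all genes were, and with the GC trend taken out 1 rose and none fell. Without day 30 contralateral replicate 2 or day 0 replicate 3 there were 3 rises and no fall, and without day 0 replicate 2 there were 2 and none. Gpr34, a lysophospholipid receptor of microglia, had 12.4, 11.4 and 10.7 CPM in day 30 contralateral libraries and 5.55, 4.97 and 6.58 CPM in day 0 libraries (1.01 ± 0.13, adjusted p = 1.9e-06; 0.52 and 0.00589 with the GC trend taken out). P2ry12, the purine receptor of resting microglia, rose by 0.39 ± 0.11 (adjusted p = 0.0119), and its difference was 0.01 (0.985) in that fit. That call was lost without day 30 contralateral replicate 1 and without day 0 replicate 2. Cx3cr1 had 22.7, 16.9 and 16.3 CPM in day 30 contralateral libraries and 26.8, 22.2 and 25.1 CPM in day 0 libraries (-0.40 ± 0.14, adjusted p = 0.0675). It was called lower without day 30 contralateral replicate 1, by DESeq2 (-0.39, adjusted p = 0.031) and in a replicate block (-0.41, 0.00469). Aif1 differed by 0.04 ± 0.14 (adjusted p = 0.897). Of 20 microglia activation genes 1 was called in edgeR's test (5%), Cd9, with -0.20 ± 0.06 (adjusted p = 0.0248), and its call was lost without day 30 contralateral replicate 1 or 3 and without day 0 replicate 2 or 3. DESeq2 called 2 members lower, and with the GC trend taken out 2 were lower and 1 higher. Spp1, encoding osteopontin, was called lower in both (-0.35, adjusted p = 0.0222, and -0.50, 0.0484), and the lysosomal membrane gene Cd63 was higher in the GC fit (0.27, 0.00601). Among signals, the alarmin gene Il33 rose by 0.81 ± 0.12 (adjusted p = 0.000153), and Cx3cl1, the neuronal ligand of Cx3cr1, fell by 0.32 ± 0.06 (0.000378).

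Astrocyte genes had 2 of 20 members higher and 2 lower (20%, background 16.1%). There were 1 and 1 without day 30 contralateral replicate 3 and 4 and 3 without day 0 replicate 1. The GC fit called 5 higher and 1 lower, and DESeq2 called 5 higher and 2 lower. Glul, glutamine synthetase, had 1943, 2108 and 2072 CPM in day 30 contralateral libraries and 1777, 1414 and 1633 CPM in day 0 libraries (0.34 ± 0.07, adjusted p = 0.000722). Gfap, the filament gene of reactive astrocytes, had 871, 770 and 634 CPM in day 30 contralateral libraries and 800, 1150 and 1051 CPM in day 0 libraries, with overlapping groups (-0.40 ± 0.16, adjusted p = 0.115), and was called lower without day 0 replicate 1.

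No member passed edgeR's test in 11 of the 47 lists: complement, interferon-stimulated genes, lymphocytes, blood myeloid cells, border macrophages, choroid plexus, ependyma, red cells, serotonin neurons, Hox and hindbrain patterning, and cell division. Of their 179 genes 19 had an unadjusted p under 0.05, DESeq2 called 4, limma-voom none and limma on the deposited log2 values 1. Of the 34 interferon-stimulated genes 6 were called higher and 1 lower in the fit of the 6 libraries alone. The fit of the 12 day 0 and contralateral libraries gave the same counts, and DESeq2 called 3 of these genes higher. Single libraries stood apart in markers of neighbouring tissue. The choroid plexus gene Ttr had 8.86, 14.6 and 25.9 CPM in day 30 contralateral libraries and 77.1, 4.66 and 3.61 CPM in day 0 libraries. Hox genes summed to 67.9 to 99.4 CPM in day 30 contralateral pons and 57.0 to 205 CPM in day 0 pons.

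Glucocorticoid-responsive genes had 4 of 20 members higher and none lower, with a median of 0.53. This is 20% called, where 16.1% of all genes were called and 9.32% were called higher. With the GC trend taken out 6 rose. DESeq2 called 10 higher, and 8 were higher in a replicate block. There were 8 rises without day 0 replicate 1, and 2 without day 30 contralateral replicate 3 or day 0 replicate 3. Plin4, a lipid droplet protein gene (chromosome 17, 56100591 to 56109803, minus strand), had 19.1, 35.97 and 49.98 CPM in day 30 contralateral libraries and 12.7, 2.69 and 4.02 CPM in day 0 libraries (2.46 ± 0.59, adjusted p = 0.0102). Day 0 replicate 1 was the highest of its group for this gene and for Sgk1, a kinase gene, which had 251, 341 and 425 CPM in day 30 contralateral libraries and 254, 110 and 115 CPM in day 0 libraries (1.09 ± 0.60, adjusted p = 0.258). The Plin4 call was lost without day 30 contralateral replicate 3 and in the fit of the 6 libraries alone.

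The genes with the largest log2 differences were named by a rule: called, with a mean of at least 1 CPM over the 6 libraries and with groups that do not overlap. This rule was met by 1911 rising and 1402 falling genes, and 12 and 11 of them are named after passing over 7 and 6 predicted or clone symbols. Besides the mitochondrial genes, Plin4 and Hspa1b, the rises were Fmo2, Zxdb, Ccl28 and Kirrel2. Fmo2, a flavin monooxygenase gene (chromosome 1, 162874317 to 162898726, minus strand), had 9.58, 11.6 and 13.4 CPM in day 30 contralateral libraries and 2.46, 1.36 and 1.91 CPM in day 0 libraries (2.60 ± 0.31, adjusted p = 1.79e-05). Its contralateral means were 3.62 CPM at day 7 and 6.27 at day 14, and day 30 exceeded day 7 by 1.67 (adjusted p = 0.0499). Zxdb, an X-linked zinc finger gene (94724569 to 94730187, plus strand), had 11.6, 14.97 and 13.1 CPM in day 30 contralateral libraries and 3.67, 3.49 and 4.54 CPM in day 0 libraries (1.76 ± 0.13, adjusted p = 2.04e-10). It already stood at 13.7 CPM at day 7 and 13.02 at day 14.

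The falls were Pcdh12, H19, Tll2, Foxs1, Gpr179, Fam178b, Vstm4, Prdx2-rs3, Lox, Ptprv and Slc17a7, and most lay near 1 CPM. Pcdh12, an endothelial protocadherin gene, had 0.433, 0.338 and 0.376 CPM in day 30 contralateral libraries and 1.30, 2.06 and 1.93 CPM in day 0 libraries (-2.19 ± 0.27, adjusted p = 1.56e-06). Vstm4, expressed by pericytes (chromosome 14, 32856756 to 32939491, plus strand), had 9.20, 8.33 and 9.02 CPM in day 30 contralateral libraries and 21.3, 26.7 and 24.3 CPM in day 0 libraries (-1.44 ± 0.11, adjusted p = 9.1e-10). It was also lower at day 30 than at day 7, by -0.58 (adjusted p = 0.0496). H19, an imprinted noncoding RNA, differed by -1.78 ± 0.44 (adjusted p = 0.00721), and Lox, which cross-links collagen, by -1.43 ± 0.28 (0.000646). Prdx2-rs3 has a close relative in Prdx2, and its counts are uncertain. The Ptprv call was lost without day 30 contralateral replicate 1 or 3 and without day 0 replicate 2.

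**Figure D4:**
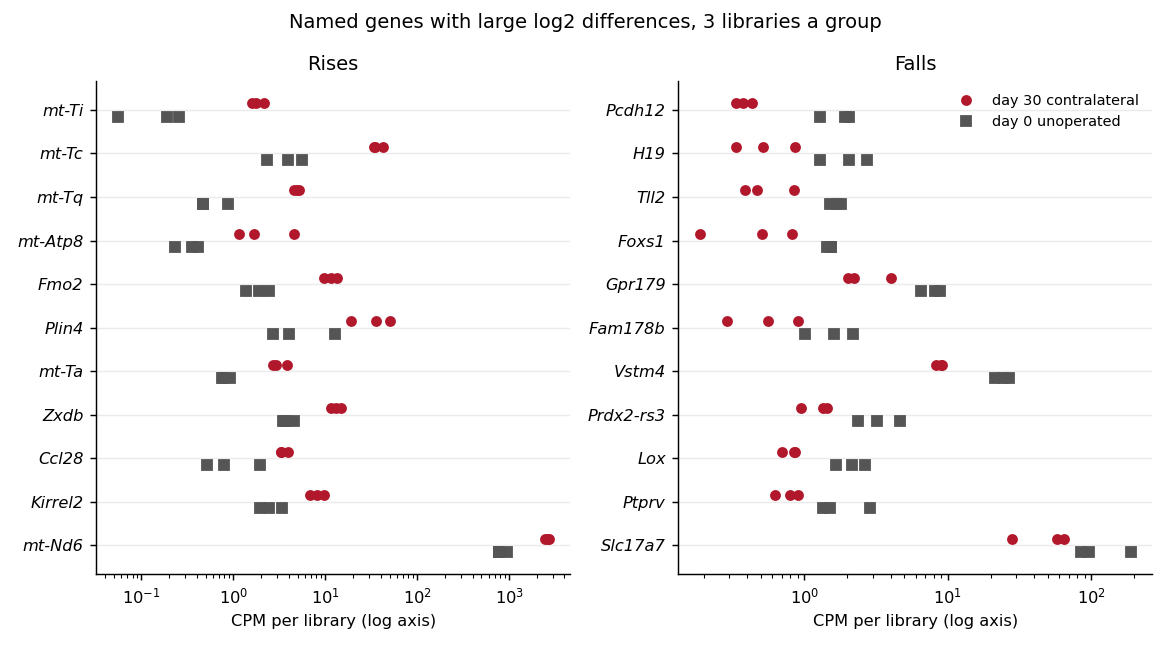
CPM in each library (log axis) for 11 rising and 11 falling genes that the rule on log2 differences names, predicted and clone symbols passed over, day 30 contralateral libraries as red circles above day 0 libraries as grey squares. By the rule that chose them the 2 groups do not overlap for any gene, and most falling genes lie near 1 CPM.

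In absolute level, the 5 nuclear genes that gained most CPM were Snap25, Glul, Dynll2, Nefl and Qk, and among those that lost most were Mag, Cnp, Tubb4a and Dnm1. Qk, an RNA-binding protein gene of oligodendrocytes and astrocytes, had 665, 641 and 617 CPM in day 30 contralateral libraries and 397, 337 and 419 CPM in day 0 libraries (0.74 ± 0.08, adjusted p = 2.65e-07). Dynll2, a dynein light chain gene, rose by 0.44 ± 0.06 (adjusted p = 5.25e-06), with 1474, 1547 and 1475 CPM in day 30 contralateral and 1118, 1088 and 1099 CPM in day 0 libraries. Tubb4a, a tubulin gene of oligodendrocytes and neurons, fell by 0.24 ± 0.07 (adjusted p = 0.0132), and this call was lost with the GC trend taken out (0.217), without day 30 contralateral replicate 3 and without day 0 replicate 3.

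Day 7 and day 14 contralateral pons gave 2341 calls (10.5%; 6.84% higher and 3.66% lower) and 3527 calls (15.8%; 9.09% higher and 6.73% lower) against the same 3 day 0 libraries. Day 30 lesion pons gave 4992 (22.4%; 12.7% higher and 9.69% lower). These comparisons share the day 0 libraries with the one described here. Of the 3597 genes called at day 30, 56 also differed between day 30 and day 14 contralateral pons, 25 between day 30 and day 7, and 9 in both. Gas5, a noncoding RNA, and Hspa1b were among the 9, as were mt-Rnr1, mt-Rnr2, mt-Tq, mt-Co1 and mt-Cytb, all higher at day 30. Smarca4, also among the 9, was lower at day 30 (-0.28 against day 0, edgeR adjusted p = 0.000746). The Gas5 call against day 0 was lost with the GC trend taken out (0.11, adjusted p = 0.463).

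**Figure D5:**
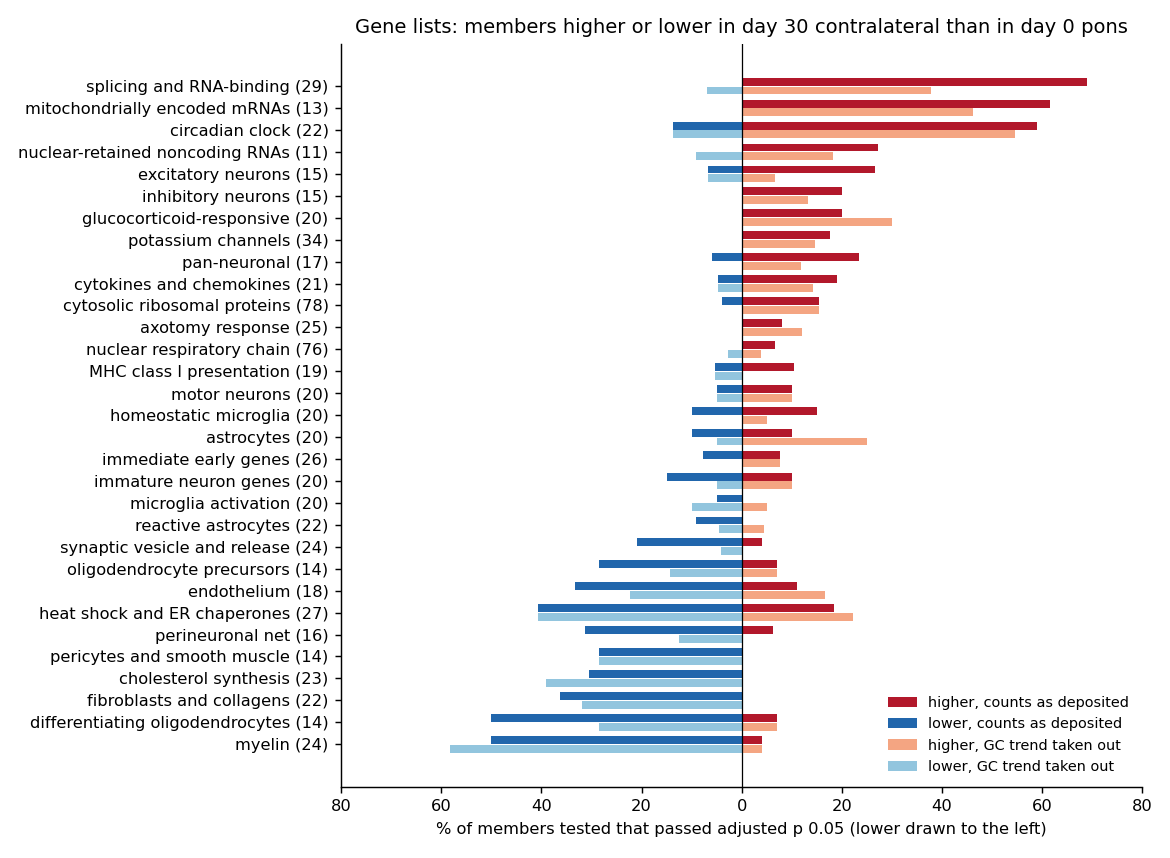
Percentage of tested members (number in brackets) called higher, drawn to the right, or lower, drawn to the left, in day 30 contralateral than in day 0 pons, for lists with at least 4 calls over both fits. Dark bars use counts as deposited and pale bars the fit with each library's GC trend taken out. Splicing genes go from 20 of 29 higher to 11, while clock, chaperone and myelin lists stay within 2 calls in each direction.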

How the data were processed

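Per the labels' protocols, total RNA was purified from ventral pons on RNeasy columns, and 300 ng went into TruSeq Stranded mRNA libraries. Per the submitters' processing notes, the authors used CASAVA 1.8.2, Subread, featureCounts and limma with genome build GRCm38.p4, and deposited raw read counts per gene and a log2 CPM matrix. Whether counting used strand is not given in the sources used here. Sample descriptions swap the side letters of the day 30 count columns, and this was followed. Genes with a summed count under 30 were left out.

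Counts of all 21 libraries were fitted with edgeR 4.0.16 in R 4.3.3 (TMM, robust quasi-likelihood, 1 coefficient per group, no covariate), with Benjamini-Hochberg adjustment over 22294 genes. Printed log2 differences are day 30 contralateral minus day 0 unless stated, with SE; CPM are TMM-scaled, with SD over 3 libraries. The deposited log2 values (limma 3.58.1), DESeq2 1.42.0 and the other alternatives are in the closing section. On simulated data with 200 of 22294 genes changed 2-fold, the fit recovered 89.5% of them with 10 false calls. The simulated counts took the fit's own dispersions, held no GC trend and changed far fewer genes than the 3597 called here. Of the called differences 67.8% were under 0.5 on the log2 scale, smaller than the simulated 2-fold. These rates therefore do not carry over to the calls described. GC content is that of the longest GENCODE transcript, found for 94.3% of higher, 97% of lower and 93.6% of other genes. The GC fit gives edgeR an offset from a smooth trend per library and was added after the data were seen. All 190 named or mitochondrial genes were placed on GRCm38; 22 overlap annotated exons of another gene in sense and 50 in antisense, and reads of such pairs cannot be told apart where the counting ignored strand.

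Genes were named by rule: 12 rising and 12 falling by log2 difference (called, mean of at least 1 CPM, groups apart), 5 rising and 5 falling by CPM, the 2 to 4 members of smallest adjusted p in lists with a call, and 8 markers. A few genes that met the rule are not reported here. Further clock, mitochondrial and chaperone genes and Sgk1 were added after their values were seen. The members and all lists were chosen with earlier results of these data known. Equal replicate numbers did not pair libraries of the 2 groups (correlations of deviations -0.11, 0.04 and -0.13). PCR duplicates were not marked by molecular identifiers.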

Additional observations from a re-analysis of the deposited data

Results flagged for a closer look

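A set of named genes differed between contralateral pons at day 30 and at an earlier day, or between the 2 sides at day 30, by a test of that difference in the same edgeR fit. All values are log2 differences.

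Against day 14 contralateral pons, 9 named genes were higher at day 30: Hspa1b by 1.67 (adjusted p = 0.0147), mt-Tq by 0.82 (0.0461), mt-Cytb by 0.58 (0.0461), mt-Co1 by 0.58 (0.00969), Gas5 by 0.44 (0.00969), Rps20 by 0.35 (0.0461), Mbp by 0.31 (0.0481), Bcas1 by 0.29 (0.0381) and Rpl22 by 0.26 (0.0461). Pdgfrb was lower, at -0.39 (adjusted p = 0.0461). Mbp did not differ from day 0 past the threshold.

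Against day 7 contralateral pons, 6 named genes were higher: Hspa1b by 1.95 (adjusted p = 0.00722), Fmo2 by 1.67 (0.0499), mt-Tq by 1.07 (0.0132), mt-Co1 by 0.74 (0.00149), mt-Cytb by 0.70 (0.0238) and Gas5 by 0.45 (0.00757). Vstm4 was lower, at -0.58 (adjusted p = 0.0496), and so was Fa2h, at -0.35 (0.0293).

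On the day 30 lesion side 9 named genes were higher than on the contralateral side: Sprr1a by 6.96 (adjusted p = 2.36e-06), Atf3 by 3.45 (2.15e-05), Ctss by 1.09 (1.61e-09), B2m by 1.01 (3.5e-05), Aif1 by 0.77 (0.00244), Psmb8 by 0.72 (0.036), Sox11 by 0.70 (0.00387), Tgfbr1 by 0.39 (0.0134) and Cd9 by 0.29 (0.00864).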

How the results depend on the processing

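Apart from the GC fit, refits at the same threshold with all replicates called 3183 to 3949 genes, and 2469 to 3078 when single replicates were left out (lowest without day 30 contralateral replicate 3). A replicate block gave 3949 calls, 2214 higher and 1735 lower; the labels do not say that equal numbers mark a shared animal. The block ended the call of B2m among 137 called named genes and moved the count of named genes against day 14 to 18. Taking out the GC trend left 2203 calls, and of the 137 it ended 29 with the sign kept. It also ended the calls of Elavl4 (-0.0383), Gria2 (-0.0890), Gria3 (-0.0721) and Snap25 (-0.000992), which changed sign, while Atp5f1 (-0.26, adjusted p = 0.0143) changed sign and was called. A log2 threshold of 1.7 left 100 genes.

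The 10 named genes that differed from day 14 numbered 18 with DESeq2, 18 without a filter, 4 with limma-voom, 3 without mitochondrial genes and 0 to 13 when single replicates were left out. The 8 that differed from day 7 numbered 16 with DESeq2, 14 without a filter, 3 without mitochondrial genes, 3 with the GC trend taken out and 1 to 11 when single replicates were left out. Between the 2 sides of day 30, fitted without pairing by animal, the count was 9. It was 11 in a replicate block and 6 to 11 when single replicates were left out. The mitochondrial share differed by 3.10 to 3.59 percentage points when single replicates were left out, and by 3.42 over filtered genes. Without single replicates 9 to 23 of the 137 calls were lost, and the cause was not tested. Thinning all libraries to the smallest total left 3183 calls. Contrasts with the lesion side or with days 7 and 14 could not be made in fits without those libraries.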

Other observations

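Genes of growing neurons and of the matrix around neurons moved in both directions. Of 20 immature neuron genes 2 were higher and 3 lower in day 30 contralateral pons (25% called, where 16.1% of all genes were), and 2 higher and 1 lower with the GC trend taken out. Marcks, a membrane-bound regulator of actin, had 111, 108 and 82.6 CPM in day 30 contralateral libraries and 58.6, 52.1 and 69.2 CPM in day 0 libraries (0.74 ± 0.11, edgeR adjusted p = 0.000124). Its relative Marcksl1 had 27.7, 31.1 and 27.4 CPM in day 30 contralateral libraries and 41.5, 45.8 and 48.2 CPM in day 0 libraries (-0.65 ± 0.09, adjusted p = 5.36e-06). Neither pair of groups overlapped, and with the GC trend taken out the differences were 0.68 and -0.54, both still called. Of 16 perineuronal net genes 5 fell and 1 rose (37.5%), and 2 fell with the GC trend taken out. Adamts4, a protease that cuts matrix proteoglycans, differed by -0.46 ± 0.09 (adjusted p = 0.000699). The perineuronal count was 1 higher and 2 lower without day 30 contralateral replicate 3 or day 0 replicate 3.

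Of 15 excitatory neuron genes 4 rose and 1 fell (33.3%, background 16.1%), but with the GC trend taken out 1 rose and 1 fell. Without day 0 replicate 2 there was 1 rise, without day 30 contralateral replicate 1 there were 2, and without replicate 3 of either group 2 rose and 1 fell. Gria4, a glutamate receptor subunit gene, rose by 0.31 ± 0.06 (adjusted p = 0.000476) and by 0.22 in that fit (0.0066). Of 17 pan-neuronal genes 4 rose and 1 fell (29.4%), with 2 rises and no fall with the GC trend taken out and 3 rises and no fall without day 30 contralateral replicate 3. Of 11 nuclear-retained noncoding RNAs 3 rose (27.3%), and in the GC fit 2 rose and 1 fell. Snhg14, the host transcript of an imprinted small nucleolar RNA cluster, had 73.4, 70.9 and 71.9 CPM in day 30 contralateral libraries and 40.4, 30.6 and 34.8 CPM in day 0 libraries. Its difference was 1.03 ± 0.11 (adjusted p = 1.74e-06), and 0.43 with the GC trend taken out (0.000583). Of 26 immediate early genes 2 rose and 2 fell (15.4%, near the background), and 2 rose and none fell with the GC trend taken out. Nr4a3, an activity-induced nuclear receptor gene, rose by 0.86 ± 0.18 (adjusted p = 0.00158). The immediate early list had 1 or 2 calls without day 30 contralateral replicate 2 or 3 or without day 0 replicate 2 or 3.

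The remaining lists held 4 higher and 1 lower of 21 cytokine and chemokine genes (23.8%, background 16.1%). Class I antigen presentation had 2 higher and 1 lower of 19 genes (15.8%). There were 1 higher of 11 class II genes, 2 lower of 22 reactive astrocyte genes and 1 higher of 11 histone genes (9.09% each). Of 8 noradrenaline neuron, 15 cerebellar neuron and 11 neuron to microglia signal genes 1 each was lower (12.5%, 6.67% and 9.09%). The class II call was lost without day 30 contralateral replicate 1 or 2 or day 0 replicate 2 or 3. The histone call was lost without replicate 1 of either group, and the cerebellar call without replicate 2 of either group. The noradrenaline call was lost without day 30 contralateral replicate 3 or day 0 replicate 2, while DESeq2 called 2 lower. In the GC fit the cytokine list had 3 higher and 1 lower and class I presentation 0 higher and 1 lower. That fit called 2 class II genes higher and 2 signal genes lower, and no histone, noradrenaline or cerebellar gene.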
